A study of Drosophila melanogaster with 29 samples.

Results

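Oregon-R is a wild-type laboratory stock of Drosophila melanogaster that has been handed between laboratories and then kept apart in each of them. Males of 2 such stocks, one established in Glasgow and one in Cambridge, were compared here through the 3 arrays labelled Glasgow Male and the 3 labelled Cambridge Male, 6 of the 29 arrays of the series. The other arrays hold males and females of France (Kerbiniou), Antigua and Hikone and the females of both Oregon-R stocks. The Hikone samples bear the genotype label Japan Oregon R (Hikone), whereas the study's methods count only the Glasgow and Cambridge stocks as Oregon-R, so that Hikone may not be unrelated to them. Hikone is counted here with France and Antigua as the other strains. All strains had been maintained at Cambridge before the flies were collected, at an age of 0 to 6 hours after eclosion and at 25 °C, and no group carried a transgene, a mutation introduced for the study or a treatment. Each replicate was a group of whole flies whose RNA was extracted on its own. The p-values rest on the spread between such replicates, pooled over males and females of all strains rather than taken from the 6 male arrays alone. A transcript near the floor in females varies little there, which lowers its pooled error below that of males. Its adjusted p can then be too small for a comparison of males. The number of flies in a replicate is not given in the sources used here. The question was how far 2 stocks of one name have come to differ in their transcripts.

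A whole newly eclosed male contains a testis that makes sperm, an accessory gland that makes seminal fluid, a gut that has not yet or only just begun to feed, fat body partly carried over from the pupa, and soft cuticle that is still hardening. Testis transcripts include many duplicates of genes used by every cell, for instance second copies of respiratory chain and proteasome subunits. The gut secretes digestive proteases, maltases that split sugars, and lysozymes that break bacterial walls. Antimicrobial peptides and the Bomanins, small secreted peptides of the Toll pathway, are made by the fat body. Cytochrome P450 enzymes, glutathione S-transferases and UDP-glycosyltransferases act on foreign compounds. In RNA of whole flies, a smaller number of cells of a type and less RNA in each of them cannot be told apart.

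Levels are GCRMA values on the log2 scale, in which a difference of 1 is 2-fold. Differences are always given as Glasgow minus Cambridge, with the standard error (SE) of a limma model over all 29 arrays. A probe set was called at a Bonferroni adjusted p below 0.01 over the 13966 probe sets without array controls. Replicates of Glasgow males correlated at 0.992 to 0.996 across probe sets, and those of Cambridge males at 0.975 to 0.993. Replicates 2 and 3 of the Cambridge males correlated at 0.993, so the lower values were those of replicate 1. Array medians lay between 4.49 and 4.61. Arrays of one strain carry successive numbers in their titles. What these numbers record is not stated, and stock cannot be told apart from anything that followed their order.

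Cambridge male replicate 1 carried transcripts of the ovary. In this array 353 probe sets lay at least 1 above both other Cambridge male arrays, and all 353 were over 2-fold higher in females than in males of France, Antigua and Hikone, a class that holds 15.7% of all probe sets. Replicates 2 and 3 exceeded the rest of their group in this way at 26 and 85 probe sets, and the Glasgow male arrays at 5 to 19. The transcript of yolk protein Yp1, made by female fat body and ovary, was 10.85 in Cambridge male replicate 1, 4.95 in replicate 2 and 2.18 in replicate 3, and 2.40, 2.42 and 2.20 in the Glasgow males. Vm34Ca, a protein of the vitelline membrane around the egg, was 11.28, 4.96 and 4.04 in the Cambridge males against 4.29, 4.14 and 4.01. Replicate 1 alone was high for both of these, with replicate 2 at an intermediate level for Yp1.

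All 3 yolk protein genes, 9 of 16 eggshell genes and 21 of 36 genes of the female germline were at least 1 higher in replicate 1 than in both other Cambridge arrays. The germline transcripts osk, which localizes the germ plasm, and dhd, a thioredoxin of the egg, stood at 10.08 and 12.51 in replicate 1. dhd also reached 8.63 in replicate 2, where replicate 3 was 3.61 and the Glasgow males were 4.59, 3.94 and 3.97. Of the 353 probe sets, 7 were at least 1 higher in replicate 2 than in replicate 3 and in all Glasgow male arrays. None of the 3 yolk genes was called by limma, although 2 had an unadjusted p under 0.05 and 0 a Benjamini-Hochberg value under 0.01, and the Yp1 difference was −3.65 ± 1.23 (adjusted p = 1). Without replicate 1 the Yp1 difference was −1.23, that of Yp2 went from −2.45 to −0.01 and that of Yp3 turned from −0.79 to 1.08. Of the 353 probe sets, 1 was called with all 6 arrays and 2 without replicate 1. The array also lay at least 1 below both others at 104 probe sets, of which 68.3% were over 2-fold higher in males in the other strains. Call counts, list medians and most differences below are therefore given with and without this array, and "both fits" means with and without it.

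**Figure D1:**
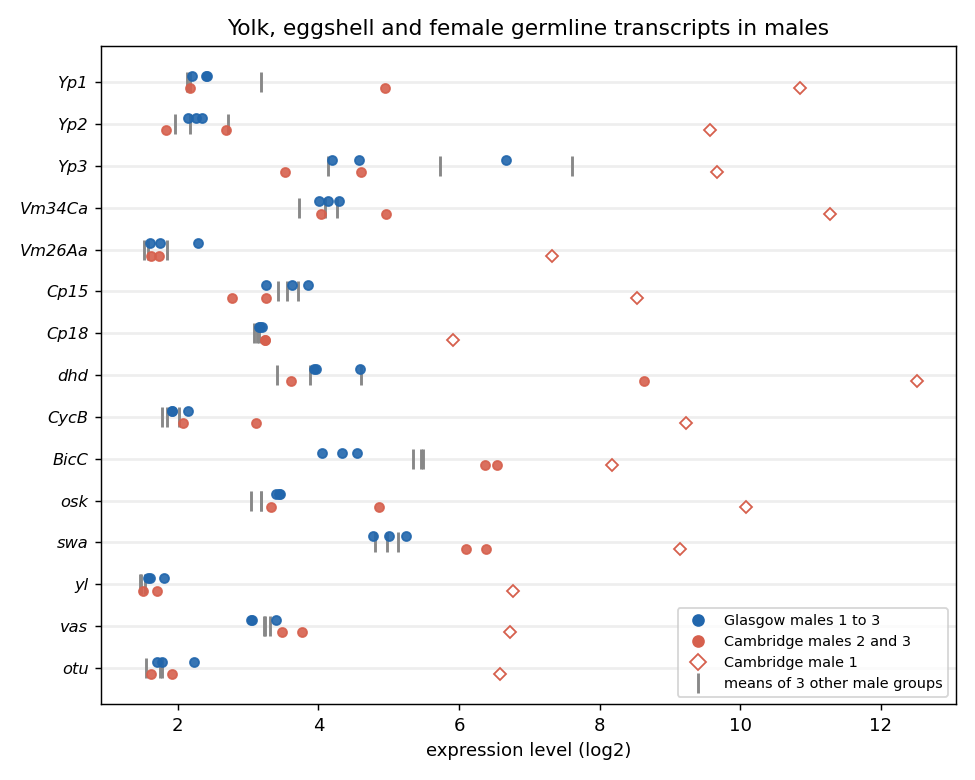
Expression levels (log2, x axis) of 15 yolk, eggshell and female germline transcripts in males. Blue points are the 3 Glasgow arrays, filled red points Cambridge replicates 2 and 3, open diamonds Cambridge replicate 1 and grey ticks the means of France, Antigua and Hikone males. Replicate 1 is the highest array in every row, with dhd at 12.51.

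With all 6 arrays, 320 probe sets differed between the stocks, 2.29% of those tested, and 253 of them differed over 2-fold. Of the 320, 135 were higher in Glasgow males (0.967%) and 185 in Cambridge males (1.32%). Without Cambridge male replicate 1, 342 were called (2.45%), 97 higher in Glasgow (0.695%) and 245 higher in Cambridge (1.75%), so that the share higher in Glasgow went from 42.2% to 28.4%. The calls shared by both fits numbered 244, of which 85 were higher in Glasgow and 159 in Cambridge. The median difference over all probe sets was 0.03 with and 0.05 without that array. The count also rested on other single arrays, with 200 calls without Glasgow male replicate 1, 209 without Cambridge male replicate 2 and 212 without Glasgow male replicate 3. When only the 15 male arrays of all strains were fitted, 154 were called and 68.8% of them were higher in Glasgow.

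The largest difference of all was in Muc68D, a gene for a mucin, a heavily glycosylated protein of secreted barriers. It measured 10.66, 10.62 and 10.63 in the Glasgow males and 4.64, 4.37 and 3.91 in the Cambridge males. The Glasgow arrays lay together at the level of Antigua and Hikone males (means 10.61 and 10.54) and all Cambridge arrays lay far below, without overlap. The difference of 6.33 ± 0.31 (80.4-fold, adjusted p = 4.1e-11, limma) was 6.5 without replicate 1, and females of the stocks differed in the same direction, by 3.53 (adjusted p = 2.59e-06).

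Genes of sugar digestion went the same way. The maltase Mal-A4 was 7.14, 8.58 and 7.51 in Glasgow males and 2.19, 2.18 and 3.39 in Cambridge males. The groups were 5.16 ± 0.41 apart (adjusted p = 5.1e-07), or 4.96 without replicate 1, and males of the other strains averaged between 6.51 and 7.78, close to Glasgow. All 10 maltases on the array had higher means in Glasgow, with and without replicate 1, and in 9 of them the groups did not overlap, against 31.4% of all genes. Their median difference was 2.55, and 1.98 without replicate 1, where that of all genes was 0.03 and 0.05. The maltases were set apart from the rest of their list after their values had been seen.

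Only Mal-A4 among the maltases was called in both fits. Mal-A1 was 11.75, 12.0 and 11.66 in Glasgow and 8.09, 8.50 and 10.57 in Cambridge. Here Cambridge replicate 3 was the nearest to the Glasgow arrays, and the adjusted p was 1. Mal-B2 was 8.01, 8.48 and 8.11 against 6.26, 6.24 and 6.54, a difference of 1.85 that was called with all 6 arrays (adjusted p = 0.00175) but not without replicate 1 (adjusted p = 0.0229). The probe set of Mal-A3 showed 6.23, 7.52 and 6.36 against 1.82, 2.70 and 4.70, which did not pass (adjusted p = 0.0187).

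Lysozymes were split. LysX stood at 10.10, 10.28 and 10.12 in Glasgow males and 5.91, 4.82 and 4.99 in Cambridge males, a difference of 4.93 ± 0.58 (adjusted p = 0.000474), or 5.26 without replicate 1. The remaining 6 lysozymes on the array had differences below 0. In 4 of them, LysB, LysC, LysD and LysE, all Cambridge arrays were above all Glasgow arrays, an order found in 15.2% of all genes. LysD was 7.72, 7.95 and 7.88 in Glasgow and 10.77, 10.98 and 11.30 in Cambridge (adjusted p = 0.246), and France males, with a mean of 7.85, were at the Glasgow level. These 4 were not called in males, and their sequences are alike enough that one probe set may read several of them. In females all 4 were called in the same direction, LysD with −7.02 (adjusted p = 8.17e-07).

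**Figure D2:**
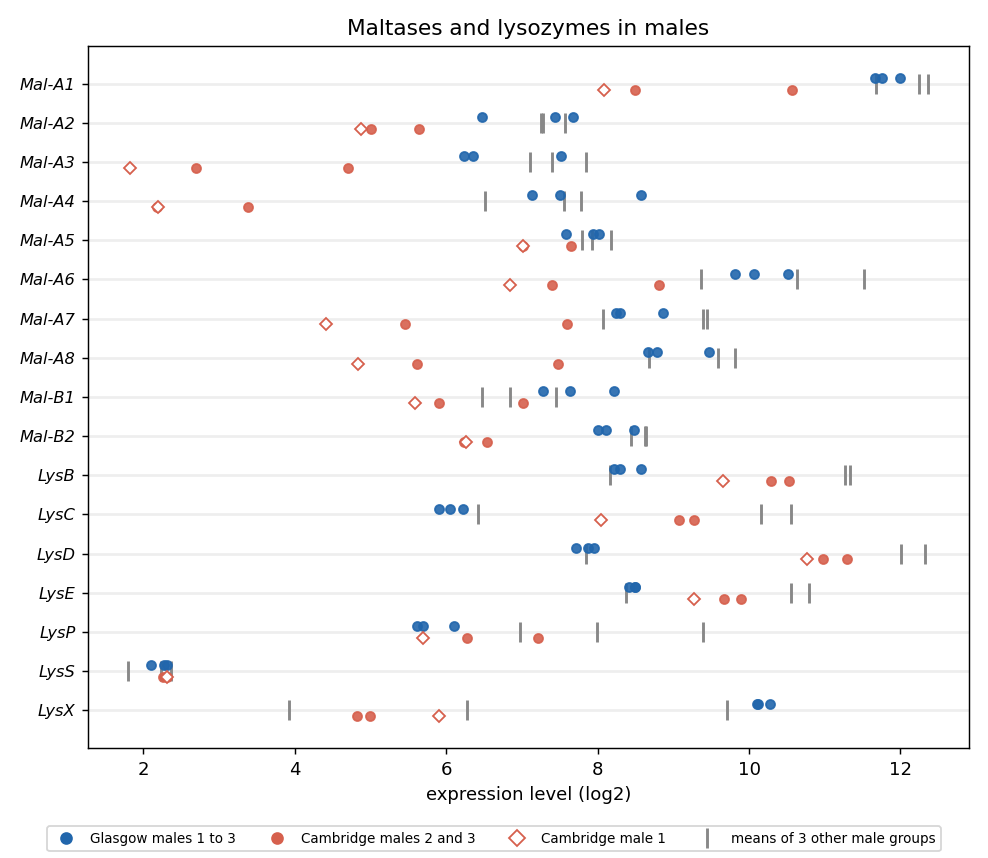
Expression levels (log2, x axis) of 10 maltases and 7 lysozymes in males, with symbols as in the plot of ovary transcripts. The blue Glasgow points lie to the right for the maltases and LysX, while for LysB, LysC, LysD and LysE the red Cambridge points do; the groups overlap for Mal-A5. The open diamond of Cambridge replicate 1 covers replicate 2 for Mal-A4, Mal-A5 and Mal-B2.

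Over the whole list of sugar digestion and lysozyme genes, 3 of 24 were called with all 6 arrays, all higher in Glasgow, and 2 in both fits. Of all genes, 2.54% were called with all 6 arrays (1.01% higher in Glasgow and 1.53% in Cambridge) and 2.74% without replicate 1 (0.719% and 2.02%). Digestive proteases were called for 2 of 27 genes, both higher in Glasgow in both fits. Jon65Aii, a chymotrypsin-like enzyme of the gut, was 7.96, 7.71 and 7.08 in Glasgow and 4.88, 4.23 and 3.44 in Cambridge. Ser6, a serine protease, was 6.67, 7.09 and 6.29 against 4.89, 4.55 and 4.79. Neither overlapped, and the differences were 3.40 ± 0.44 (adjusted p = 0.00238) and 1.94 ± 0.24 (adjusted p = 0.00151), or 3.75 and 2.01 without replicate 1.

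In 15 of the 27 proteases every Glasgow array lay above every Cambridge array, and in 0 was the order the opposite, where the shares over all genes were 16.2% and 15.2%. betaTry, a trypsin of the gut, was 11.47, 12.16 and 11.84 against 9.10, 9.54 and 10.27, without a call. The list's median was 0.54 with all arrays and 0.29 without replicate 1, which itself was lower in this list than the mean of the other Cambridge arrays by a median of −0.74. List medians were 5.77 to 6.62 in the Cambridge arrays, 7.49 to 8.10 in the Glasgow arrays and 8.04 to 8.80 in the means of the other strains, so that Cambridge lay lowest. Calls for Jon65Aii and Ser6 were lost when another single array was left out. For Jon65Aii the adjusted p was 0.0214 without Cambridge replicate 2, 0.0428 without Cambridge 3, 0.0409 without Glasgow 1 and 0.0301 without Glasgow 2. For Ser6 these were 0.0259, 0.0134, 0.0151 and 0.0272.

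A few genes higher in Glasgow males had their Cambridge level near the lower end of the scale. CG6283 measured 7.11, 7.59 and 7.62 in Glasgow and 1.83, 2.33 and 2.07 in Cambridge, and males of the other strains averaged 6.82 to 9.39 (difference 5.36 ± 0.40, adjusted p = 2e-07, and 5.24 without replicate 1). isoQC, a glutaminyl cyclase, was 7.15, 6.47 and 7.0 against 2.72, 2.68 and 2.64 (difference 4.19 ± 0.24, adjusted p = 8.94e-10, and 4.21 without replicate 1). Its pattern was the reverse of that of CG6283 among the strains, for France, Antigua and Hikone males averaged 2.53 to 3.03, so that Glasgow alone was high. These 2 were the only called genes over 6 in all Glasgow male arrays and below 3 in all Cambridge male arrays. One probe set without a gene symbol showed the opposite. A second probe set of isoQC differed by −0.13, so the difference was seen in 1 of its 2 probe sets.

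Cpr67Fb, a protein of the cuticle, was 8.76, 9.17 and 9.28 in Glasgow males and 3.29, 4.33 and 4.5 in Cambridge males. It too was raised in Glasgow alone, the other strains averaging 4.79 to 5.72 (difference 5.03 ± 0.46, adjusted p = 8.26e-06, and 4.66 without replicate 1; adjusted p = 0.0466 when only male arrays were fitted). It was the only called gene of 73 cuticle protein genes, whose median difference was 0.03, and 0.05 without replicate 1. CG6912 was 7.83, 7.84 and 7.99 in Glasgow and 4.33, 4.24 and 4.08 in Cambridge (difference 3.67 ± 0.16, adjusted p = 4.55e-12, and 3.73 without replicate 1), and France males with a mean of 7.41 sided with Glasgow while Antigua and Hikone males, at 4.07 and 3.88, sided with Cambridge. CG8562, CG3699, CG1304, CG9259 and CG9928 completed the group, higher in Glasgow by 4.28, 3.66, 2.86, 2.66 and 2.47.

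**Figure D3:**
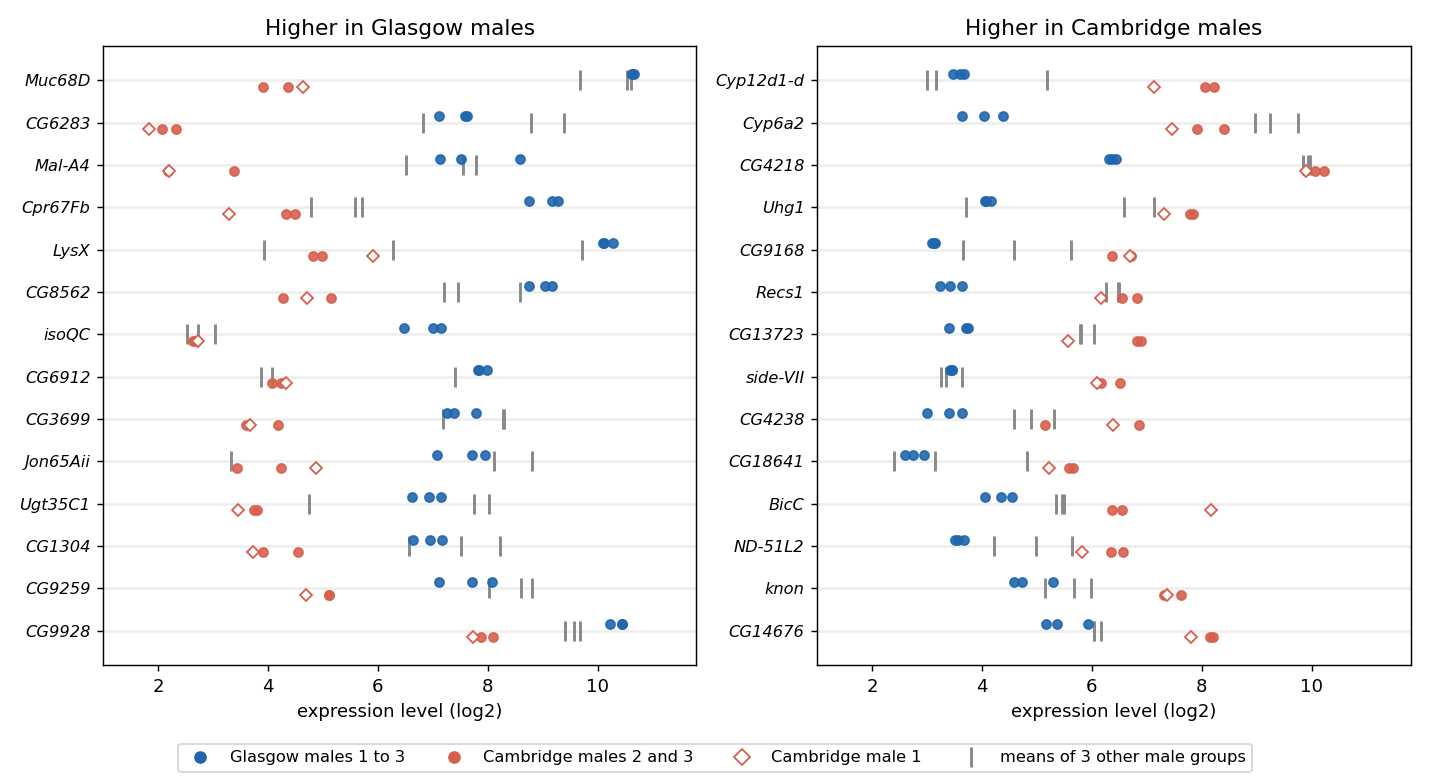
Expression levels (log2, x axis) in males for the 14 genes with the largest called differences in each direction, with symbols as in the plot of ovary transcripts. For 7 of the 14 genes higher in Glasgow (left) the Cambridge arrays alone lie outside all 9 arrays of the other male groups, and for 7 of the 14 higher in Cambridge (right) the Cambridge arrays alone do so.

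Detoxification enzymes differed in both directions. Among 83 cytochrome P450 genes, 8 were called with all 6 arrays, 3 higher in Glasgow and 5 in Cambridge, and 5 in both fits, 1 and 4. Over all genes, 1.01% were called higher in Glasgow and 1.53% in Cambridge with all 6 arrays. In both fits these were 67 and 143 of 10844 genes. Cyp12d1-d, a mitochondrial P450 known to be induced by foreign compounds, was 3.47, 3.67 and 3.59 in Glasgow males and 7.13, 8.05 and 8.22 in Cambridge males (−4.22 ± 0.20, adjusted p = 4.32e-11, and −4.56 without replicate 1). Cyp6a2, known from insecticide resistance, was 3.63, 4.04 and 4.38 against 7.45, 7.91 and 8.40 (−3.90 ± 0.44, adjusted p = 0.000276, and −4.14 without replicate 1). No Glasgow array reached a Cambridge array for either gene. Against the other strains they parted. Cyp12d1-d was high in Cambridge alone, the others averaging 3.00 to 5.18, whereas Cyp6a2 averaged 8.97 to 9.75 in the others and was lower in the Glasgow and Cambridge stocks. Cyp12d1-d has a nearly identical neighbouring copy, and its probe set may read both.

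Cyp4p3 and Cyp6w1 were also higher in Cambridge males. Cyp6w1 was 7.88, 8.44 and 7.84 in Glasgow and 9.63, 9.95 and 10.19 in Cambridge (−1.87, adjusted p = 0.00348, and −2.02 without replicate 1). Cyp28a5 went the other way, at 7.08, 7.26 and 6.69 against 4.91, 4.42 and 4.56 (2.38 ± 0.23, adjusted p = 2.2e-05, and 2.52 without replicate 1), and France males were at the Cambridge level with 4.85. Cyp6d4 and Cyp4e1, higher in Glasgow by 1.87 and 1.57 with all arrays, missed the threshold without replicate 1 (adjusted p = 0.0112 and 0.0171). The call of Cyp4p3 was lost when only male arrays were fitted (adjusted p = 0.0511).

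Conjugating enzymes that were called were higher in Glasgow. GstE8 and GstE7, which lie next to each other on chromosome arm 2R, were called in both fits among 34 glutathione S-transferases, of which 3 were called with all 6 arrays and 4 without replicate 1. Of all genes, 2.54% and 2.74% were called in these fits. GstE8 was 5.35, 5.80 and 5.5 in Glasgow and 4.01, 3.69 and 3.80 in Cambridge (1.72 ± 0.18, adjusted p = 8.32e-05, and 1.80 without replicate 1). GstE7 was 5.93, 5.93 and 5.61 against 4.56, 4.71 and 4.73 (1.16 ± 0.14, adjusted p = 0.000445, and 1.10 without replicate 1; adjusted p = 0.0327 when only male arrays were fitted). In 19 of the 34 genes the Glasgow arrays all lay above the Cambridge arrays, and in 2 below, against 16.2% and 15.2% of all genes. The median difference of the list was 0.49, and 0.46 without replicate 1.

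Of 33 UDP-glycosyltransferases, 3 were called in both fits, all higher in Glasgow, as were 67 of all 10844 genes. Ugt35C1 measured 6.93, 7.15 and 6.63 in Glasgow and 3.46, 3.74 and 3.80 in Cambridge (3.24 ± 0.26, adjusted p = 6.58e-07, and 3.13 without replicate 1). Ugt37D1 and Ugt35A1 were higher in Glasgow by 1.55 and 1.34, the latter with an adjusted p of 0.052 when only male arrays were fitted. Ugt35C1 was at 4.74 in France males and at 8.02 and 7.75 in Antigua and Hikone males. The median of the list was 0.07, and 0.09 without replicate 1, where all genes had 0.03 and 0.05.

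Immune transcripts were higher in Glasgow males in most members, with few calls. Rel, the NF-κB factor of the Imd pathway, was 9.09, 9.26 and 9.20 in Glasgow and 7.82, 7.77 and 7.99 in Cambridge. The groups did not overlap, and the difference of 1.32 ± 0.10 was called in both fits (adjusted p = 3.94e-07 and 9.46e-06), the only call among 30 genes of immune recognition and signalling. Females of both stocks had the same mean, 8.10, and the stock by sex interaction of Rel was called (1.32, adjusted p = 0.00019).

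Mtk, the antifungal and antibacterial peptide metchnikowin, was 9.48, 7.87 and 8.34 in Glasgow males and 2.73, 2.40 and 4.42 in Cambridge males. Its difference of 5.38 was called with all 6 arrays (adjusted p = 0.00177) and not without replicate 1 (5.15, adjusted p = 0.0273). DptB, a diptericin, was 8.73, 6.58 and 7.40 against 3.80, 2.58 and 4.65, without a call. All 8 antimicrobial peptide genes had differences above 0, as 59.8% of all genes did, 6 of them without overlap (16.2% of all genes in this direction), with a median of 1.19, and 1.22 without replicate 1. In females of the stocks the list's median was −0.28.

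The 8 Bomanins on the array were all higher in the Glasgow mean, 7 of them without overlap of the arrays (59.8% and 16.2% over all genes), and none was called in males by limma, although 7 had an unadjusted p under 0.05 and 5 a Benjamini-Hochberg value under 0.01. BomT2 came closest, at 10.90, 10.71 and 10.91 in Glasgow and 8.94, 8.56 and 8.80 in Cambridge (2.07, adjusted p = 0.0144, and 2.16 with an adjusted p of 0.0596 without replicate 1). BomS6 was 12.36, 12.40 and 12.36 against 10.82, 10.71 and 10.89 (1.57, adjusted p = 0.0737). With IM33 these genes make up the list of immune induced peptides, whose median was 1.18 with and 1.11 without replicate 1. The Bomanins were set apart within it after their values had been seen. Beside these groups, the median difference of 14 haemocyte and basement membrane markers was 0.02 with and without replicate 1, and the part of blood cells in the immune differences was not tested.

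Transcripts of the 3 measured larval serum and fat body protein genes separated replicates rather than stocks. Fbp1, a receptor for larval storage proteins, was 10.20, 5.02 and 9.86 in Glasgow males and 4.43, 5.87 and 5.18 in Cambridge males. Fbp2 and the storage protein Lsp2 had the same shape, with Glasgow replicates 1 and 3 high and replicate 2 within the Cambridge range or close to it. Fbp1 was not called (3.20 ± 0.84, adjusted p = 1), but without Glasgow male replicate 2 it was 4.87 with an adjusted p of 2.54e-05. France, Antigua and Hikone males averaged 4.72, 3.89 and 3.90.

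**Figure D4:**
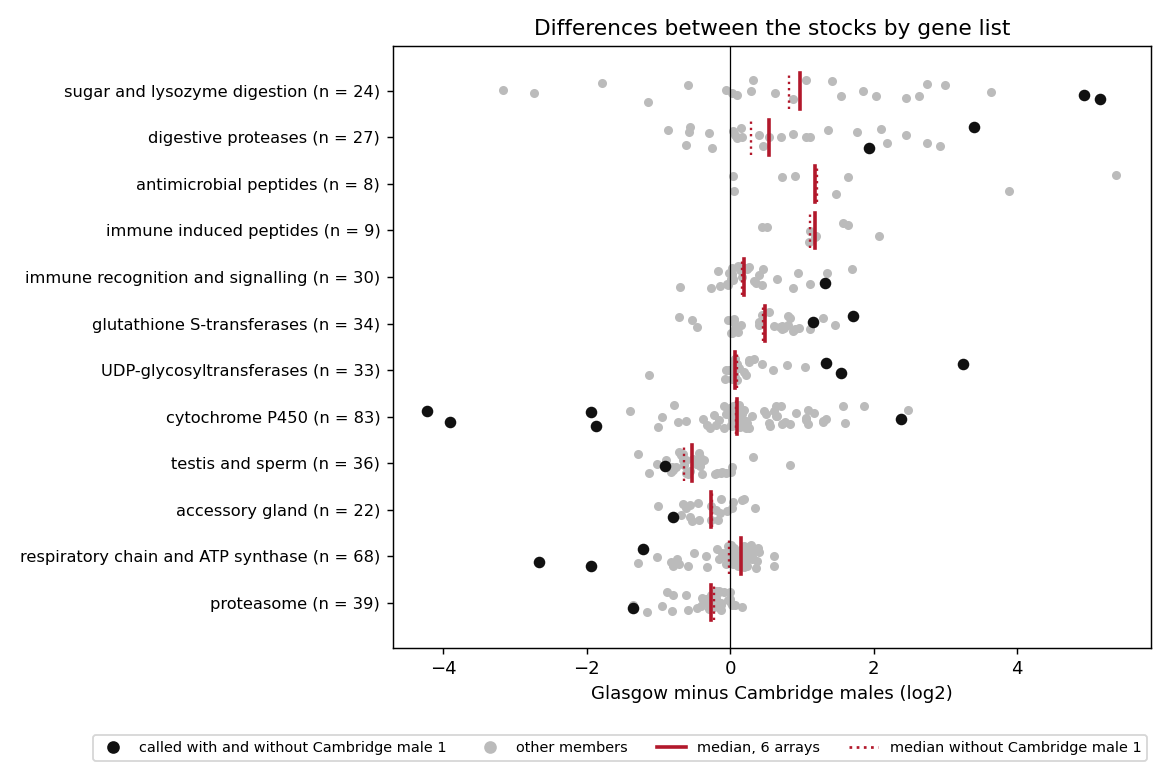
Differences between the stocks (Glasgow minus Cambridge males, log2, x axis) for the members of 12 gene lists. Black points were called with and without Cambridge male replicate 1, grey points were not, solid red bars are medians over all 6 arrays (0.97 for sugar and lysozyme digestion, −0.54 for testis and sperm) and dotted bars medians without that replicate.

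Transcripts higher in Cambridge males were for the most part transcripts of males. Of the 159 probe sets higher in Cambridge in both fits, 76.1% were over 2-fold higher in males than in females of France, Antigua and Hikone, arrays that are in neither group mean but share the model's estimate of error. The share was 15.3% of the 85 higher in Glasgow and 12.7% of all probe sets. When only male arrays were fitted, the calls higher in Cambridge fell from 185 to 48, of which 52.1% were of this male-high class, against 27.4% of the 106 higher in Glasgow. Low spread in females can shrink the pooled error of such transcripts. For CG13723, as an example, standard deviations within groups were 0.01 to 0.07 in females and 0.19 to 0.75 in males. How much of the fall came from this and how much from fewer arrays was not tested. Among 1606 genes of this male-high class, 807 had all Cambridge arrays above all Glasgow arrays (50.2%), against 842 of the other 9238 genes (9.11%). The median difference was −0.55 in the class and 0.04 outside it, and −0.66 and 0.06 without replicate 1, the array that held ovary RNA. Beside this, the median over 36 female germline genes was −0.59 with and 0.01 without that replicate.

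The 36 testis and sperm genes show the size of the shift. Their list medians were 8.10, 8.30 and 8.06 in the Glasgow arrays and 8.82, 9.05 and 8.98 in the Cambridge arrays, with France, Antigua and Hikone at 8.20, 8.40 and 8.38, nearer to the Glasgow arrays. In 23 of the 36 all Cambridge arrays were higher, and in 1 all Glasgow arrays, against 15.2% and 16.2% of all genes. Of the 36, 27 were male-high, a split made after the values were seen. All Cambridge arrays were higher in 21 of the 27 (77.8%), against 50.2% of all male-high genes, with a median of −0.61 beside −0.55. For the other 9 this was so in 2 (22.2%), against 9.11% outside the class. The median difference of all 36 was −0.54, and −0.65 without replicate 1. Single genes seldom passed the test. Mst98Cb, a sperm tail protein, was 9.83, 10.01 and 10.08 in Glasgow and 10.60, 11.09 and 10.96 in Cambridge (−0.91 ± 0.12, adjusted p = 0.00466, and −1.05 without replicate 1), the only call of the list. Its call was lost without each of the other 5 arrays in turn, with adjusted p from 0.0153 to 0.0834, with median centring (0.0141) and with only male arrays (adjusted p = 1).

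Seminal fluid genes gave 1 call. The protease Sems, known as Seminase, was 8.50, 8.70 and 8.82 in Glasgow and 9.29, 9.41 and 9.72 in Cambridge, the only call among 22 accessory gland genes (−0.80 ± 0.10, adjusted p = 0.00177, and −0.89 without replicate 1). Its call was lost without Cambridge replicate 3 (adjusted p = 0.018), Glasgow replicate 1 (0.0316) or Glasgow replicate 2 (0.0142), and with only male arrays (0.785). In 12 of the 22 all Cambridge arrays were higher, and in 1 all Glasgow arrays, against 15.2% and 16.2% of all genes. Among all male-high genes the share with all Cambridge arrays higher was 50.2%. The list's median was −0.27, and −0.26 without replicate 1. In the ejaculatory duct and bulb, none of 4 genes was called by limma (1 had an unadjusted p under 0.05 and 1 a Benjamini-Hochberg value under 0.01), and EbpIII, EbpII and Anp differed by −0.16, −0.32 and −0.05. Gld, a glucose dehydrogenase of the duct, was 5.07, 5.22 and 5.32 against 6.64, 6.19 and 7.26 (−1.49, adjusted p = 0.0292, and −1.52 with an adjusted p of 0.166 without replicate 1; adjusted p = 0.00401 without Cambridge replicate 2).

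Male-high second copies of genes used by every cell were among these transcripts. Of the 68 respiratory chain and ATP synthase genes, 3 were called in both fits, all higher in Cambridge and all among the 17 members over 2-fold higher in males in the other strains. ND-51L2, a copy of the complex I subunit ND-51, was 3.50, 3.68 and 3.56 in Glasgow and 5.82, 6.57 and 6.35 in Cambridge (−2.67 ± 0.25, adjusted p = 8.99e-06, and −2.88 without replicate 1). ATPsynCF6L, a copy of coupling factor 6, was 6.40, 6.77 and 6.36 against 7.75, 8.76 and 8.84 (−1.94 ± 0.20, adjusted p = 7.36e-05, and −2.29 without replicate 1). ND-24L was the third, at −1.22 ± 0.13 (adjusted p = 8.43e-05), and −1.29 without replicate 1. In 10 of the 17 male-high members the Cambridge arrays lay above all Glasgow arrays, with a median of −0.71, and −0.87 without replicate 1. This share, 58.8%, was near the 50.2% of all male-high genes, whose median was −0.55. Among the other 51 members this was so for 0, 0 were called by limma (4 had an unadjusted p under 0.05 and 0 a Benjamini-Hochberg value under 0.01), and their median was 0.18, and 0.04 without replicate 1, where differences below 0 went from 9 to 20 of the 51. The split by sex was made after the values were seen. All 3 calls were lost when only male arrays were fitted (adjusted p = 0.0164, 0.165 and 0.0977).

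In the proteasome, split in the same way after the values were seen, the 11 male-high members all had differences below 0, with a median of −0.81 (−1.06 without replicate 1), and 7 of them did not overlap (63.6%, again beside 50.2% of all male-high genes). Rpn12R, a copy of a subunit of the regulatory particle, was 5.18, 5.14 and 5.02 in Glasgow and 6.31, 6.65 and 6.45 in Cambridge (−1.36 ± 0.10, adjusted p = 9.88e-08, and −1.44 without replicate 1), the only call of 39 genes in both fits. Prosbeta5R1, a copy of a catalytic subunit, was called only without replicate 1 (−1.64, adjusted p = 0.00161). The other 28 members had a median of −0.15 in both fits. In 12 of them (42.9%) the Cambridge arrays were above all Glasgow arrays, against 9.11% of all genes outside the male-high class. RpS19b, a duplicate of a ribosomal protein gene, was 5.04, 5.22 and 5.20 against 5.95, 6.94 and 6.58 (−1.34 ± 0.18, adjusted p = 0.00375, and −1.61 without replicate 1), where the 36 cytoplasmic ribosomal proteins had a median of 0.19, and 0.18 without replicate 1. Its call was lost without each of the other 5 arrays, with adjusted p from 0.0244 to 0.0567, with median centring (0.0112) and with only male arrays (adjusted p = 1).

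knon, a copy of ATP synthase subunit d used in the mitochondria of developing sperm, measured 4.58, 4.72 and 5.29 in Glasgow and 7.37, 7.62 and 7.31 in Cambridge, apart by −2.57 ± 0.22 (adjusted p = 2.64e-06, and −2.60 without replicate 1). CG4218 was 6.31, 6.36 and 6.43 in Glasgow and 9.89, 10.23 and 10.07 in Cambridge (−3.70 ± 0.10, adjusted p = 5.4e-16, and −3.78 without replicate 1). Here Glasgow stood apart, and the other male groups averaged 9.85 to 9.97. Recs1 was of the same kind, with 3.23, 3.63 and 3.42 against 6.17, 6.83 and 6.54 and other male groups at 6.25 to 6.49 (−3.09 ± 0.20, adjusted p = 8.3e-09, and −3.26 without replicate 1). CG13723 and CG4238, with differences of −2.82 and −2.78, also had Glasgow alone outside the other males, and their calls, like that of knon, were lost when only male arrays were fitted (adjusted p = 0.201, 0.103 and 0.0202). For CG14676, CG9168, CG18641 and side-VII, a member of a family of cell surface proteins, Cambridge alone lay outside the other males. They differed by −2.57, −3.47, −2.73 and −2.82, or −2.70, −3.42, −2.86 and −2.90 without replicate 1. In the other male groups side-VII had means of 3.25 to 3.63 and CG14676 of 6.03 to 6.17. Hikone males were nearer to Cambridge than to Glasgow for CG18641 and CG9168. CG18641 averaged 2.39, 3.15 and 4.82 in France, Antigua and Hikone males, beside 2.76 in Glasgow and 5.49 in Cambridge. For CG9168 these means were 3.65, 4.59 and 5.62, beside 3.12 in Glasgow and 6.6 in Cambridge.

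Of the 159 probe sets higher in Cambridge, 30 were over 2-fold higher in neither sex of the other strains and 8 were higher in females. Uhg1, the host of small nucleolar RNAs, was 4.05, 4.17 and 4.07 in Glasgow and 7.32, 7.79 and 7.84 in Cambridge (−3.55 ± 0.23, adjusted p = 1.44e-08, and −3.72 without replicate 1). It was higher still in Cambridge females, whose mean of 9.67 stood against 4.13 in Glasgow females. Antigua and Hikone were near Cambridge, with means of 7.13 and 6.58 in males and 9.77 and 9.88 in females. France was near Glasgow, at 3.71 in males and 3.89 in females. BicC, an RNA-binding protein of the oocyte, was 4.05, 4.55 and 4.34 in Glasgow and 8.17, 6.37 and 6.54 in Cambridge, so the array with ovary transcripts was the highest but all Cambridge arrays were high. It was called in both fits (−2.71, adjusted p = 0.00211, and −2.14, adjusted p = 0.00305). Its call was lost without Glasgow replicate 1 (0.0352) or 3 (0.0199) and with only male arrays (0.488). mRpS31, a mitochondrial ribosomal protein, was by contrast higher in Glasgow, at 7.04, 7.09 and 7.03 against 5.60, 4.76 and 5.45 (1.78 ± 0.16, adjusted p = 4.59e-06, and 1.95 without replicate 1).

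Genes of smell and hormone transport gave single calls. Obp8a, an odorant binding protein, was 3.93, 3.90 and 3.68 in Glasgow and 2.25, 2.24 and 2.54 in Cambridge (1.49 ± 0.12, adjusted p = 3.14e-07, and 1.45 without replicate 1), at the low end of the scale in both. The antennal protein a5 was higher in Cambridge, 6.56, 7.06 and 6.76 against 5.76, 5.68 and 5.62 (−1.11 ± 0.13, adjusted p = 0.000335, and −1.22 without replicate 1; adjusted p = 0.163 when only male arrays were fitted). Jhbp12, of the family of juvenile hormone binding proteins, was higher in Glasgow by 0.99 ± 0.10 (adjusted p = 8.31e-05, and 0.88 without replicate 1; adjusted p = 0.0205 when only male arrays were fitted). The stress peptides TotB and TotE differed by 0.15 and 0.02, without a call. Lists of muscle contraction, phototransduction, eye pigment and neuronal genes, 59 measured genes in all, held 0 calls in either fit by limma (10 had an unadjusted p under 0.05 and 2 a Benjamini-Hochberg value under 0.01), and their medians were 0.16, 0.01, 0.05 and 0.04 with all 6 arrays and −0.07, −0.13, 0.07 and 0.06 without replicate 1, so that the first 2 changed sign.

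The 9 male arrays of France, Antigua and Hikone were used to place each stock. A stock was taken to stand outside when all 3 of its arrays were above, or all were below, all 9. Of the 244 probe sets called in both fits, only Cambridge stood outside for 96, only Glasgow for 73, both for 25 and neither for 50. Among those higher in Glasgow the counts were 38 for Cambridge alone and 22 for Glasgow alone, and among those higher in Cambridge 58 and 51. These counts were not tested, and the same counts were not made over all probe sets. Probe sets chosen because the stocks differ will often have a stock outside, so the counts do not show which stock changed.

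Females of the same stocks were set beside the males. Of the 244 probe sets, 18 were called in females, 17 of them in the same direction. The sign of the difference was the same in females for 206 (84.4%, against 36.1% of all probe sets). That share is no even baseline, as the median over all probe sets was 0.03 in males and −0.05 in females. The 206 comprised 139 of the 159 higher in Cambridge males and 67 of the 85 higher in Glasgow males. Female differences were mostly small, so that a shared sign need not be a shared stock difference. For the 159 probe sets higher in Cambridge males the female median was −0.07, where that of all probe sets was −0.05, and for the 85 higher in Glasgow males it was 0.22. For 111 both female means were below 4, as they were for 5876 of all 13966 probe sets. The 111 comprised 97 of the 159 higher in Cambridge males and 14 of the 85 higher in Glasgow males. Across the 244 probe sets the differences in males and females correlated at r = 0.54, as a description over probe sets of the same arrays. Over all probe sets 254 were called between females of the stocks (1.82%). The stock by sex interaction was called for 156 probe sets (1.12%) with all arrays and 143 (1.02%) without Cambridge male replicate 1. Of the 244 male calls, 57 had a called interaction in both fits.

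Of the interactions called in both fits, the 4 largest lay in genes whose stock difference was greater in females or had the opposite direction there. CG14036 was 5.41, 6.40 and 5.62 in Glasgow males and 7.79, 7.94 and 7.96 in Cambridge males, a difference of −2.09 that was −6.89 in females, and the interaction was 4.81 (adjusted p = 2.1e-08). CG12194 was lower in Glasgow males by −2.39 and higher in Glasgow females by 1.62, both called, with an interaction of −4.02 (adjusted p = 2.69e-08). Fad2, the desaturase that makes female-specific hydrocarbons, was near 2.9 in every male array (2.78 to 2.96) and differed by −4.07 in females (adjusted p = 1.25e-07). CG8349 differed by −0.30 in males and by −4.97 in females, with an interaction of 4.67. Cyp12d1-d differed by −4.22 in males and −4.06 in females, both called.

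**Figure D5:**
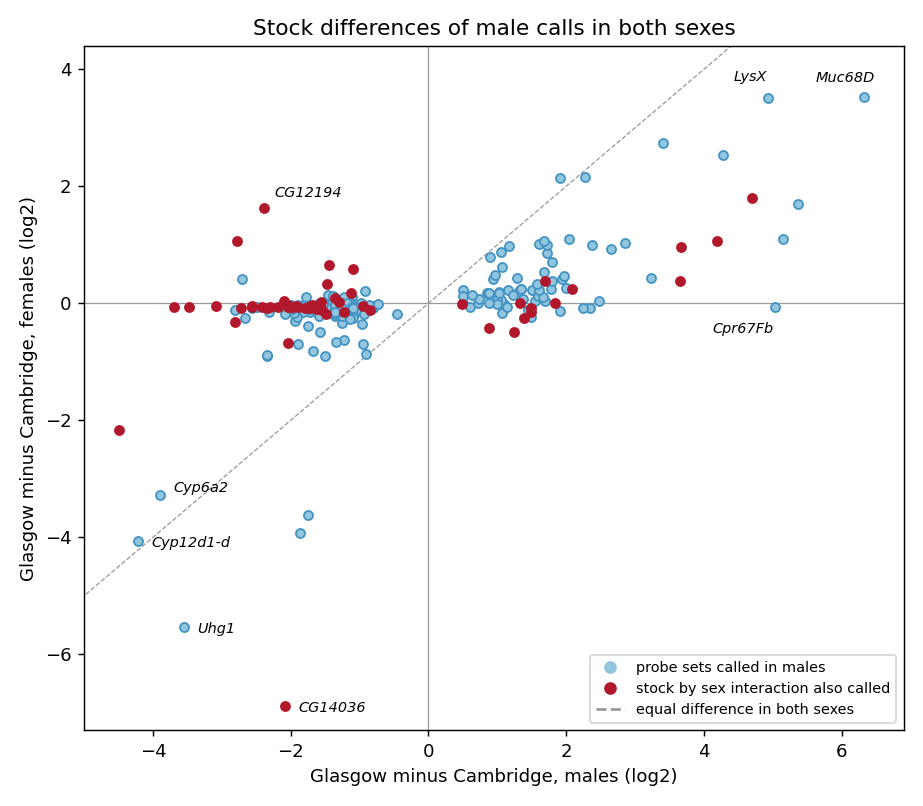
Stock differences (Glasgow minus Cambridge, log2) in females (y axis) against males (x axis) for the 244 probe sets called in males with and without Cambridge male replicate 1. Red points have a called stock by sex interaction in both fits (57), and the dashed line marks an equal difference in both sexes. For 111 of the 244 both female means were below 4, as they were for 5876 of all 13966 probe sets.

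Called genes were spread over the chromosome arms. Between 1.53% of the genes on X and 2.42% of those on 3L were called in both fits, 1.94% over all 10799 genes with a known arm. Chromosome 4, with 57 measured genes, held 0 calls by limma. Among 10793 neighbouring pairs of measured genes, both were called in 12, 10 of them in the same direction. On the Glasgow side Ser6 lay beside CG1304 on X, with differences of 1.94 and 2.86, CG3699 beside CG3690 on X (3.66 and 1.91) and GstE7 beside GstE8 on 2R. On the Cambridge side, CG13723 lay beside ND-24L on 3L (−2.82 and −1.22) and CG18641 beside CG31948 on 2L (−2.73 and −1.14). Of the 17 called genes with further probe sets, 13 of the 18 other probe sets had the same direction and 1, of CG11700, was called in both fits.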

How the data were processed

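Whole-fly RNA was hybridized to Affymetrix Drosophila Genome 1 arrays. The authors adjusted intensities for the GC content of probes, applied quantile normalization and summarised probe sets with GCRMA. Their log2 values were analysed as deposited. Versions and background settings of GCRMA are not given in the sources used here, and the background correction sets how low dim probe sets lie and so the size of large differences. Arrays have no count depth, so their number limits the precision. The 44 control probe sets were left out.

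In R 4.3.3, limma 3.58.1 fitted a mean for each of the 10 groups to all 29 arrays with moderated variances, and again to 28 arrays without Cambridge male replicate 1. Contrasts were the stocks in males, in females and their interaction, with p adjusted by Bonferroni over 13966 probe sets and called below 0.01. The script was tested on simulated data with known differences, in which a probe set had the same spread in males and females. That test cannot show errors that arise where the sexes differ in spread. The platform's table gave 1 gene symbol for 12443 probe sets, several for 327 and none for 1196, and 12394 matched the Release 6 gene table, which gave the chromosome arms. For list counts each of 10844 genes was represented by its brightest probe set. Lists are described by counts and medians without tests.

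Named genes were the 14 highest and 14 lowest differences among probe sets with 1 symbol called with and without replicate 1 whose arrays do not overlap, up to 4 such members of each list by size of difference, all members of lists of 5 or fewer genes and the 4 largest interactions called both ways. Other list members were named after their values were seen. Members and lists were chosen with earlier results of these data known. Alternatives were other thresholds, scalings, filters, arrays and error models, given in the closing section. Sequences were not used here.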

Additional observations from a re-analysis of the deposited data

Results flagged for a closer look

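The stock by sex interaction, the difference between stocks in males less that in females, was called by limma for 156 probe sets, 1.12% of those tested. Among the named genes it was called with and without Cambridge male replicate 1 for 18. It was positive for CG14036 (4.81), CG8349 (4.67), Fad2 (4.14), CG3699 (3.27), isoQC (3.13), CG6912 (2.70), Obp8a (1.57) and Rel (1.32). It was negative for CG12194 (−4.02), CG4238 (−3.84), CG4218 (−3.63), CG9168 (−3.41), Recs1 (−3.05), CG18641 (−2.64), knon (−2.52), CG14676 (−2.50), side-VII (−2.49) and Rpn12R (−1.44). CG4238 stood at 3.00, 3.39 and 3.63 in Glasgow males and 6.38, 5.14 and 6.85 in Cambridge males, whereas Glasgow females were higher by 1.06. For CG14036, CG8349 and Fad2 the larger difference was in females, and CG12194 and CG4238 had opposite directions in the 2 sexes.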

How the results depend on the processing

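The 320 male calls were 154 when only the 15 male arrays were fitted, 7 with only the 6 arrays of both groups, 863 with array weights (whose estimate did not fully converge) and 1708 with Benjamini-Hochberg adjustment. Those over 2-fold (253) were 143, 7, 595 and 688 under the same settings, and the share higher in Glasgow (42.2%) was 68.8%, 57.1% and 34.4% under the first 3. Leaving out 1 array gave 200 to 342 calls, 171 to 291 over 2-fold and a share of 28.4% to 46.7%. The 342 calls without Cambridge male replicate 1 were 1689 with Benjamini-Hochberg adjustment, 135 with only the 14 other male arrays, 11 with only the 5 other arrays and 155 to 288 without a further array (155 without Cambridge male replicate 2, 189 without 3 and 218 without Glasgow male replicate 1), all settings added after seeing the data. The interaction (156) was called for 652 probe sets with array weights, 1637 with Benjamini-Hochberg adjustment, 260 at 0.05 and 102 to 210 without 1 array (102 without Glasgow female replicate 2). The female comparison (254) gave 957 with array weights, 1294 with Benjamini-Hochberg adjustment and 178 to 283 without 1 array. All other settings stayed within 1.5 times these counts. Replicate numbers do not pair the samples: deviations of same-numbered arrays correlated at −0.0181, −0.104 and −0.0349, and the replicate number as a block gave 297 calls, 240 over 2-fold, and 126 interactions. Median centring moved the median of all probe sets to 0.05 and gave 295 calls, 45.8% higher in Glasgow. Of the 48 named genes called with all arrays, 29 stayed called under every alternative but the fit of 6 arrays, Obp8a did so where it was tested but was removed by the filter on low values, 16 lost the call with only male arrays, and 0 changed direction. Among named genes without a call, Yp3 ranged from −1.99 to 1.08 when 1 array was left out (above 0 without Cambridge male replicate 1), Anp from −0.17 to 0.03 (above 0 without Cambridge male replicate 3) and was 0.08 with array weights, and TotE from 0.02 to −0.00 without Cambridge male replicate 3 and with repeated quantile normalization. Without Cambridge male replicate 1 the list medians moved most for yolk proteins (−2.45 to −0.01), larval serum and fat body proteins (2.07 to 1.38), eggshell (−0.58 to 0.05) and female germline (−0.59 to 0.01). The causes were not tested.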
